A study of Mus musculus with 6 samples.

Results

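The contigs described here are the assembled TRA and TRB transcripts of single cells that Cell Ranger did not mark as productive, so that no complete reading frame was accepted for them. They were chosen as every TRA or TRB contig whose productive field was not True, and they number 697 of 2939 TRA and TRB contigs and of 3124 contigs in all. Of these, 236 were TRA and 461 were TRB. The cells were P2+CD4+ T cells, which bind an I-Ab tetramer that carries the P2 peptide of the retinal protein IRBP, sorted from LN of mice at 9 wk of age. All mice were AireGW/+ Lyn-/-, with a dominant negative allele of the thymic regulator Aire and no Lyn kinase, and the groups differed in having uveitis (dataset 1 and dataset 2) or not. Each library held LN cells pooled from several mice and the barcodes were not tied to single mice, so that there were 2 samples with uveitis, 1 without, and no test between the conditions.

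A T cell has a pair of alleles at each TCR locus, and joining at TRB goes from D to J first and then from V to DJ. A rearrangement that is out of frame or stopped leaves the cell to try again, at TRA by joining further upstream V genes to further downstream J genes, and the failed transcript may still be made. At TRB, transcription also starts in front of the D segments, so that an allele without a V gene can give a transcript that begins near D or J and is spliced to a C gene.

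The members fell into 4 classes by the genes named in them. Contigs with a J gene but no V gene numbered 437, of which 385 were TRB. Contigs with V and J and a CDR3 numbered 67, contigs with V and J but no CDR3 numbered 173, and 20 held a V gene without a J gene or only a C gene. The value False stood in the productive field of all 67 contigs with a CDR3, and None in the other 630. In all 697 members the full_length field was True where both V and J were named and False otherwise.

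Dataset 2 stood apart before any comparison, and the sources used here do not say whether it was filtered or processed differently, so that its values and the uveitis means below carry that limit. It held 48 members among 800 contigs and 365 barcodes, dataset 1 held 186 among 676 contigs and 212 barcodes, and the dataset without uveitis held 463 among 1648 contigs and 512 barcodes. The members took 23.2% of all UMIs in dataset 1, 2.42% in dataset 2 and 23.1% without uveitis. A UMI marks 1 captured RNA molecule, and the libraries had 25, 20.4 and 41.8 UMIs per barcode. The longest contig of any kind was 1745, 1004 and 1464 bases. Dataset 2 shared 1 barcode with the dataset without uveitis, which held 2 members, and the other pairs of libraries shared 0. A productive TRB contig was present in 94.8%, 98.4% and 97.1% of barcodes, and a productive TRA contig in 87.7%, 90.4% and 94.3%, which bears on the T cell label. The CD4 label was not checked because the mRNA libraries were not used here. Only 1 barcode of dataset 1 and 2 without uveitis held a member and no productive contig of either chain.

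The sequences on which most of the TRB result rests are germline J segments. The 3 TRBJ genes most often found without a V gene lie on the plus strand of chromosome 6 in GRCm38, TRBJ2-1 at chr6:41542754-41542803, TRBJ2-5 at chr6:41543453-41543501 and TRBJ2-7 at chr6:41543810-41543856, each a J exon. They are printed from the GENCODE annotation, 5′ to 3′, with the 4 codons of the F-G-x-G motif in capitals, whose first codon closes the CDR3 of a joined chain.
TRBJ2-1: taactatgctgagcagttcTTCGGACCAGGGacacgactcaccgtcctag
TRBJ2-5: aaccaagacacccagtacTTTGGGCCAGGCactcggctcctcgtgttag
TRBJ2-7: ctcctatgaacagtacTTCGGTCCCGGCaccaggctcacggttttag

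The CDR3 stretches below are those non-productive rearrangements that were identical in V gene, in J gene and in CDR3 nucleotides between barcodes of a library. They are shown because they could be followed from cell to cell. They are copied from the contigs, and the capitals mark the longest run shared with the germline J segment.
TRAV12-3 to TRAJ38, dataset 1: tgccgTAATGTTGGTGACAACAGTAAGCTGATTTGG
TRAV13D-2 to TRAJ12, dataset 1: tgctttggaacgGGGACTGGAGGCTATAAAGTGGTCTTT
TRAV6-7-DV9 to TRAJ58, dataset 1: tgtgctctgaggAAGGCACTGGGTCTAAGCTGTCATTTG
TRAV9-4 to TRAJ31, dataset 2: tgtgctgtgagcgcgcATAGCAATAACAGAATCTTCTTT
TRBV1 to TRBJ2-3, no uveitis: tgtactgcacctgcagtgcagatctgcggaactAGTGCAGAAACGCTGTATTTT
TRBV16 to TRBJ1-2, no uveitis: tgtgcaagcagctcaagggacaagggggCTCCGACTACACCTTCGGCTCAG

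Non-productive TRB contigs were present in 112 of 212 barcodes of dataset 1, in 16 of 365 of dataset 2 and in 320 of 512 without uveitis. The share was thus 52.8% in dataset 1, with an exact Clopper-Pearson 95% interval of 45.9 to 59.7, which covers counting error only. In dataset 2 it was 4.38% (2.53 to 7.02) and without uveitis 62.5% (58.1 to 66.7). The 2 uveitis datasets thus differed from each other by 48.4 percentage points, and the dataset without uveitis lay outside both intervals, nearer to dataset 1. Over both uveitis datasets this share averaged 28.6% ± 34.3 (SD, n = 2). The value without uveitis lay above both datasets, though within 1 SD of their mean. An SD of 2 pools this far apart does not measure the spread between mice. When the UMIs were thinned to the UMIs per barcode of dataset 2, the shares of dataset 1 and the dataset without uveitis were 52.7% and 60.4%.

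Non-productive TRA contigs were less frequent than TRB in dataset 1 and without uveitis, and more frequent in dataset 2. Dataset 1 held one in 32.1% of its barcodes (25.8 to 38.8), dataset 2 in 8.49% (5.84 to 11.8) and the dataset without uveitis in 25.6% (21.9 to 29.6). As a share of all TRA contigs they made up 25.7%, 8.23% and 19.2%, and the TRB members made up 35.2%, 3.93% and 39.0% of TRB contigs. The mean share of barcodes with a TRA member was 20.3% ± 16.7 (SD, n = 2) with uveitis, so that the value without uveitis lay between those of the uveitis datasets. Most barcodes with a member had only 1, in 107 of 145 barcodes of dataset 1, 44 of 46 of dataset 2 and 284 of 372 without uveitis.

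**Figure D1:**
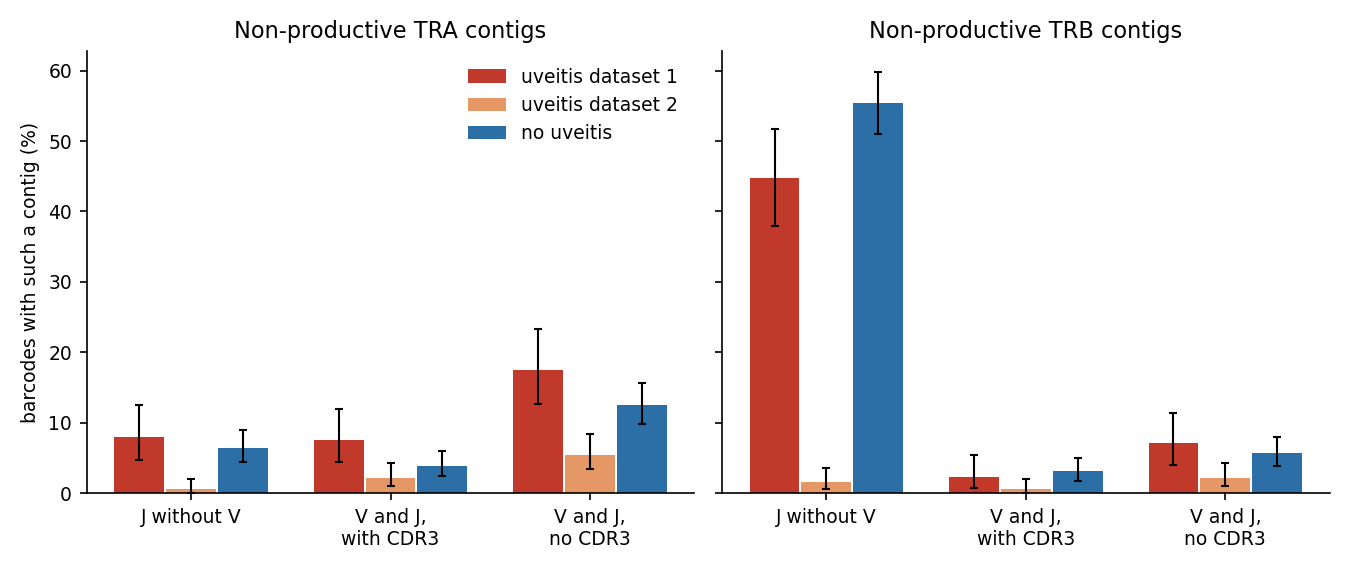
Share of barcodes (%) with a non-productive TRA contig (left) or TRB contig (right) of each class, for uveitis dataset 1, uveitis dataset 2 and the dataset without uveitis. Bars are the shares and lines the exact 95% intervals. TRB contigs with J and no V reach 44.8% and 55.5% in 2 datasets and 1.64% in dataset 2.

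TRB contigs with a J gene and a C gene but no V gene (J-C contigs) were the largest class of member in dataset 1 and without uveitis. They were found in 94 barcodes of dataset 1, 6 of dataset 2 and 284 without uveitis, or in 44.3% (37.5 to 51.3), 1.64% (0.606 to 3.54) and 55.5% (51.0 to 59.8) of barcodes. No barcode held more than 1, and none of these contigs had a D gene named. They took 20.6% of the TRB UMIs of dataset 1, 0.495% of dataset 2 and 25.8% without uveitis. Only 1 further TRB contig, in dataset 1, had a J gene and neither V nor C.

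Their UMI counts overlapped those of complete chains, with lower medians. A J-C contig of dataset 1 rested on 2 to 58 UMIs with a median of 6, one of dataset 2 on 2 to 8 with a median of 4, and one without uveitis on 2 to 98 with a median of 9. The median of productive TRB contigs was 11, 10 and 15 UMIs. Within the same barcode, TRB contigs without V had fewer UMIs than the productive TRB contig in 64 of 94 barcodes of dataset 1 (68.1%, 57.7 to 77.3), the same number in 3 and more in 27. Without uveitis they had fewer in 196 of 278 barcodes (70.5%, 64.8 to 75.8), the same in 7 and more in 75. The median ratio to the productive contig was 0.531 in dataset 1 and 0.600 without uveitis, and in dataset 2 it rested on only 3 barcodes. Reads per UMI were 7842, 7196 and 3914 in the TRB contigs without V and 5117, 3707 and 2295 in productive TRB contigs, higher without V in each library.

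**Figure D2:**
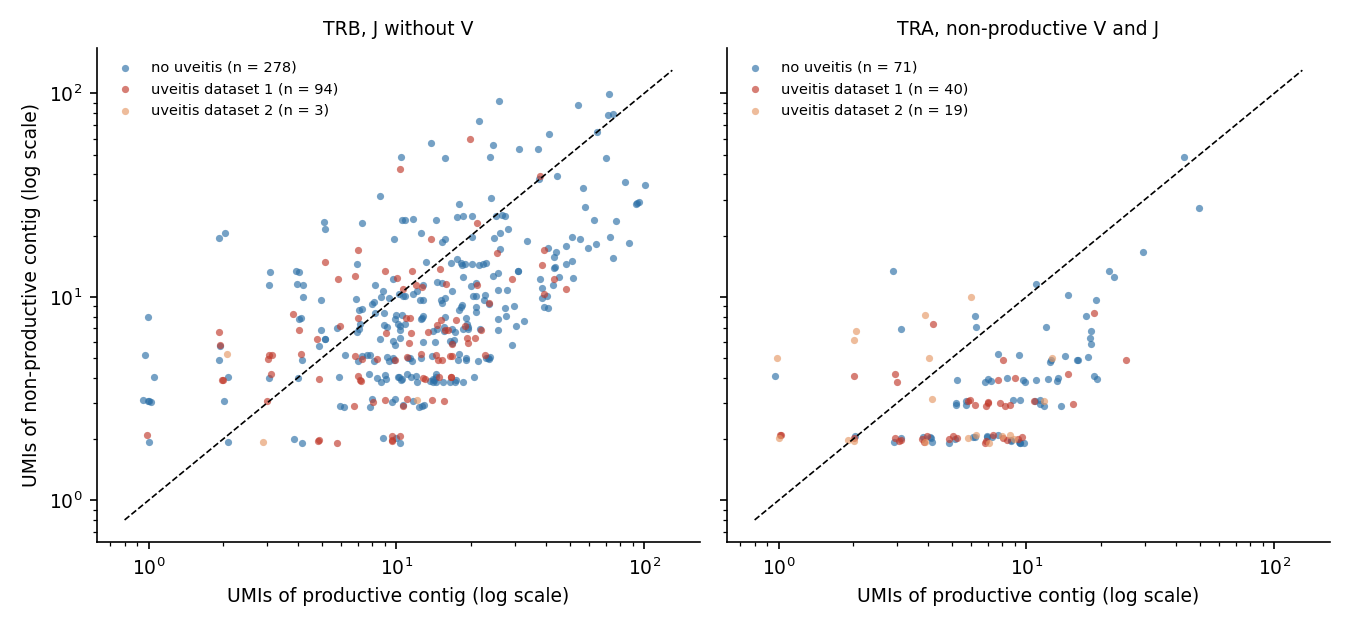
UMIs of a non-productive contig (vertical, log scale) against the productive contig of the same chain with the most UMIs in the same barcode (horizontal, log scale), for TRB contigs without V (left) and TRA contigs with V and J (right). Each point is 1 contig, with a small random shift so that equal counts can be seen, and the dashed line marks equality. Most points lie below the line, and 27 of 94 and 75 of 278 TRB points of dataset 1 and without uveitis lie above it.

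The J genes of the J-C contigs came mostly from the second TRBJ cluster, and TRBJ2-1 stood out in both large sets. In dataset 1 TRBJ2-7 was named in 32, TRBJ2-1 in 31 and TRBJ2-5 in 8 of 94 contigs. In dataset 2 TRBJ2-5 and TRBJ2-7 were named in 2 each and TRBJ1-1 and TRBJ2-1 in 1 each. Without uveitis TRBJ2-1 was named in 114, TRBJ2-7 in 56 and TRBJ2-5 in 36 of 284 contigs. TRBJ2-1 thus made up 33.0% (23.6 to 43.4) of J-C contigs in dataset 1 and 40.1% (34.4 to 46.1) without uveitis, against 10.8% (7.0 to 15.8) and 9.5% (7.11 to 12.4) of productive TRB contigs in the same libraries. The intervals of J-C and productive contigs did not overlap in either library. Counted with 1 barcode a clonotype, the share of TRBJ2-1 in J-C contigs was 38.5% and 39.6%. The productive shares were not recounted in this way.

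TRBJ2-7, the J gene named in most productive TRB contigs of all 3 libraries, did not differ in this way. Its share was 34.0% of J-C and 27.8% of productive contigs in dataset 1, and 19.7% and 17.4% without uveitis, with overlapping intervals. The TRBJ2 cluster as a whole made up 88.3% (80 to 94.0) of J-C contigs in dataset 1 and 89.1% (84.9 to 92.5) without uveitis. Among productive contigs it made up 81.1% (75.2 to 86.2) and 63.0% (58.7 to 67.2), so that only without uveitis did the intervals lie apart. Of the TRBJ1 genes, TRBJ1-4 was named most often in J-C contigs without uveitis, in 10 of 284. All 94, 6 and 284 J-C contigs were given TRBC1 as the C gene, and TRBC2 was named in 0 of 391 members and 0 of 757 productive contigs with a TRBJ2 gene. The 2 TRBC genes are near-identical, and whether the reference of the authors held TRBC2 is not given in the sources used here. The C name therefore does not show which of them a TRBJ2 transcript was spliced to.

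**Figure D3:**
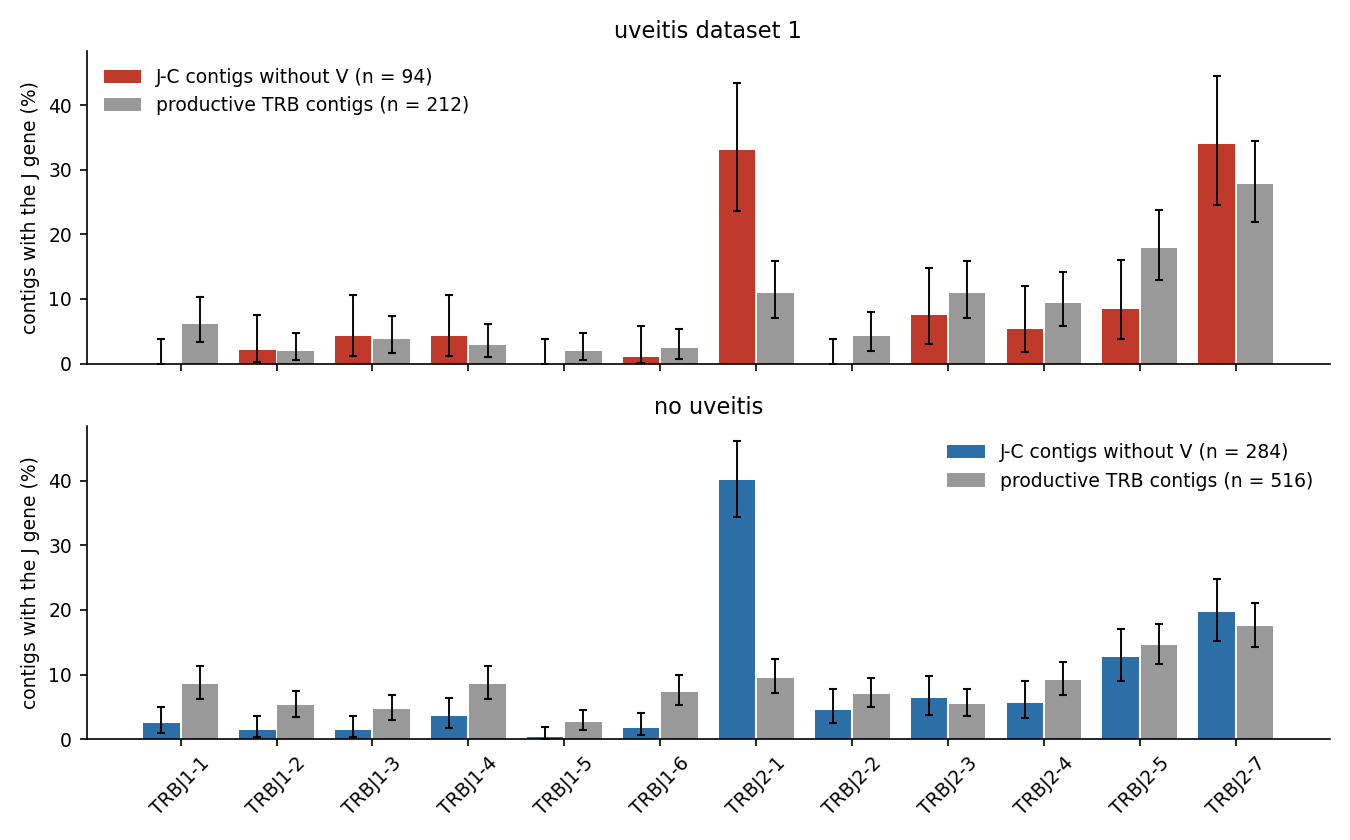
Share of contigs (%) with each TRBJ gene among J-C contigs without V (coloured) and productive TRB contigs (grey), in uveitis dataset 1 (top) and the dataset without uveitis (bottom), with exact 95% intervals. TRBJ2-1 reaches 33.0% and 40.1% of J-C contigs against 10.8% and 9.5% of productive contigs.

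The lengths of J-C contigs were unevenly spread, and are given here in 3 bands set after the lengths were seen. Without uveitis, 57 of 114 TRBJ2-1 contigs were 440 to 479 bases long and 22 were 500 to 529 bases long. The window of 1 base on either side of 448 alone held 40. At 350 to 379 bases there were 6 TRBJ2-1 contigs. In the same library 24 of 36 TRBJ2-5 contigs were 350 to 379 bases long, with 2 in each of the other bands. Of 56 TRBJ2-7 contigs, 20 were in the shortest band, 9 at 440 to 479 bases and 8 at 500 to 529. In dataset 1 the 3 bands, from the shortest, held 4, 17 and 7 of 31 TRBJ2-1 contigs and 16, 3 and 10 of 32 TRBJ2-7 contigs. TRBJ2-1 lies 577 bases after TRBD2, the nearest D segment, and TRBJ2-7 lies 1006 bases after TRBJ2-1. The contig sequences were not analysed here, so where each contig starts in the locus was not tested.

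**Figure D4:**
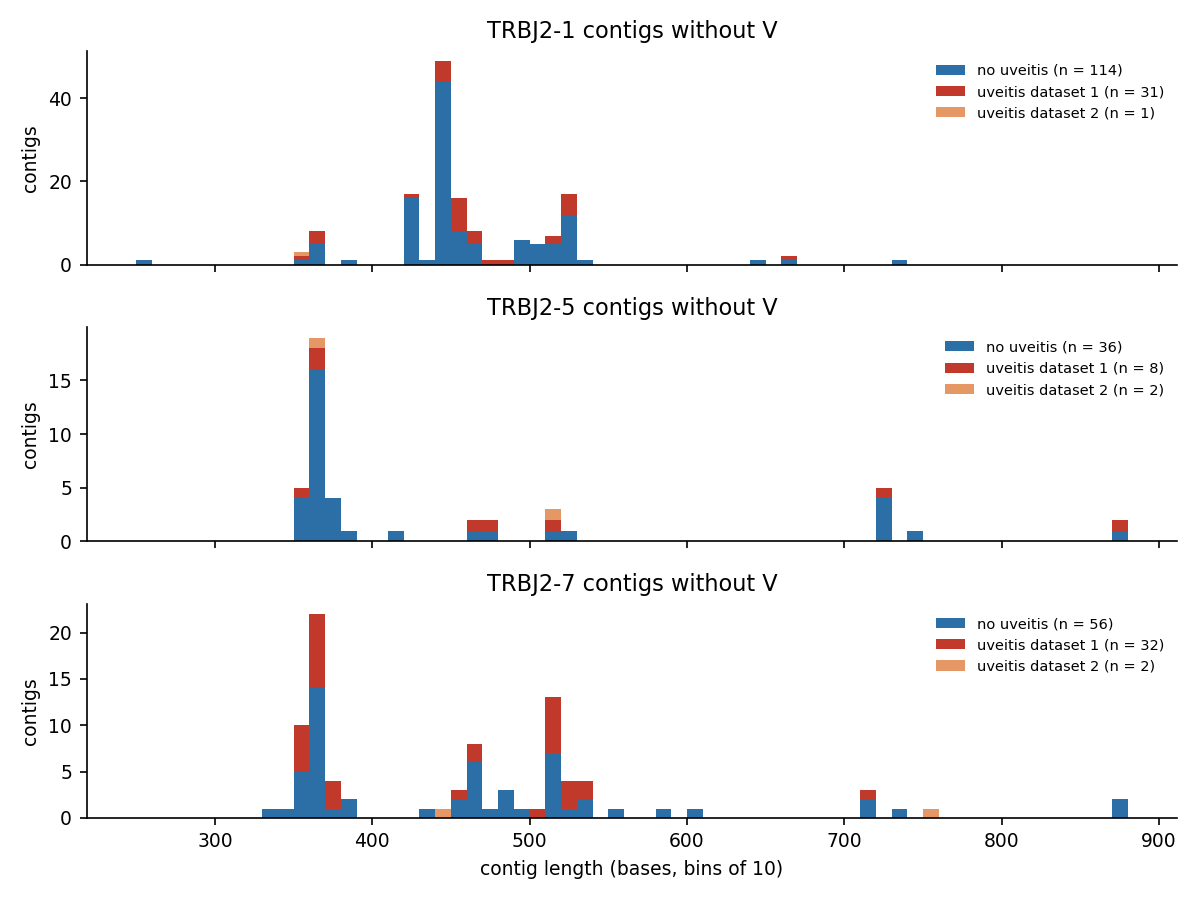
Number of J-C contigs without V by contig length (bases, in bins of 10) for TRBJ2-1, TRBJ2-5 and TRBJ2-7, stacked by library. Without uveitis 57 of 114 TRBJ2-1 contigs are 440 to 479 bases long and 22 are 500 to 529, and 24 of 36 TRBJ2-5 and 20 of 56 TRBJ2-7 contigs are 350 to 379.

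Barcodes with a J-C contig held a productive TRB contig about as often as all barcodes did in dataset 1 and without uveitis. Such a contig was in the same barcode for 93 of 94 J-C contigs of dataset 1, 3 of 6 of dataset 2 and 278 of 284 without uveitis, beside 94.8%, 98.4% and 97.1% of all barcodes. The same J gene was named in the J-C contig and in the productive contig in 24 of the 93 barcodes of dataset 1 and 30 of the 278 without uveitis. Where the productive chain used a TRBJ1 gene, the J-C contig carried a TRBJ2 gene in 25 of 28 barcodes of dataset 1 and 132 of 137 without uveitis. Where it used a TRBJ2 gene, the J-C contig carried a TRBJ2 gene in 57 of 65 and 116 of 141, and a TRBJ1 gene in the other 8 and 25.

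Barcodes with a non-productive V-to-J joined TRB contig held a J-C contig less often than other barcodes. Of these barcodes, 10 of 20 in dataset 1 and 8 of 44 without uveitis had no productive TRB contig. In dataset 1 a J-C contig was found in 3 of 20 such barcodes (15.0%, 3.21 to 37.9), against 86 of 180 barcodes (47.8%, 40.3 to 55.3) with 1 productive TRB contig and no non-productive V-J contig. Without uveitis the counts were 9 of 44 (20.5%, 9.80 to 35.3) and 261 of 443 (58.9%, 54.2 to 63.5). The intervals did not overlap in either library. Barcodes with more than 1 productive TRB contig held one in 4 of 11 (36.4%, 10.9 to 69.2) and 8 of 19 (42.1%, 20.3 to 66.5), with intervals that overlap both. In dataset 2 no J-C contig was found in 10 barcodes with a non-productive V-J TRB contig, a number too small to compare with 3 of 320.

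The productive TRB contig itself had a median of 11 UMIs in barcodes with a J-C contig and 11 in those without in dataset 1. These medians were 14 and 17 without uveitis. J-C contigs were found in 26 of 51 cells of clonotypes seen in more than 1 cell (51.0%, 36.6 to 65.2) and 61 of 125 cells of clonotypes seen once (48.8%, 39.8 to 57.9) in dataset 1. Without uveitis they were found in 42 of 80 (52.5%, 41.0 to 63.8) and 223 of 390 (57.2%, 52.1 to 62.1). A clonotype here is the V gene, J gene and CDR3 nucleotides of the TRA and the TRB contig with the most UMIs. A difference between expanded and single clonotypes was not detectable at this number of cells.

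Cells of the same clonotype tended to carry the same J gene in their J-C contigs. In dataset 1, 35 of 38 pairs of cells within a clonotype (92.1%) had the same J gene, against 861 of 3703 pairs between clonotypes (23.3%). Without uveitis these were 84 of 104 (80.8%) and 7728 of 34876 (22.2%). Pairs share cells and are not independent, and 1 clonotype gave most of the pairs in each library. Without it the counts within clonotypes were 14 of 17 in dataset 1 and 18 of 26 without uveitis. The J gene was the same in all cells of 4 of 7 clonotypes with at least 2 such cells in dataset 1 and 6 of 12 without uveitis.

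In the largest clonotype of dataset 1, TRAV12D-3 to TRAJ13 with TRBV3 to TRBJ2-7, 7 of 12 cells held a J-C contig, all 7 with TRBJ2-7. Here the productive chain used TRBJ2-7 too, so that the J gene alone does not tell the J-C contig from a partly assembled productive one. In the clonotype TRAV16N to TRAJ15 with TRBV15 to TRBJ2-3, 5 of 7 cells held one, again all with TRBJ2-7, which was not the J gene of the productive chain. Their lengths were 355, 356, 512, 514 and 718 bases. All 3 cells of TRAV9-2 to TRAJ31 with TRBV20 to TRBJ2-2 held TRBJ2-4.

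Without uveitis, 13 of 18 cells of TRAV9N-4 to TRAJ12 with TRBV31 to TRBJ1-6 held a J-C contig, 12 with TRBJ2-1 and 1 with TRBJ2-2. All 4 cells of TRAV9-2 to TRAJ44 with TRBV12-1 to TRBJ2-4 and 4 of 6 cells of TRAV14N-1 to TRAJ52 with TRBV3 to TRBJ2-2 held TRBJ2-7. In other clonotypes the J genes differed between cells, as in TRAV12D-3 to TRAJ23 with TRBV13-2 to TRBJ1-6, where 2 cells held TRBJ1-4 and 2 held TRBJ2-5. These clonotypes were chosen as those with the most J-C cells, after their values were seen.

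TRA contigs without a V gene were fewer and rested on fewer UMIs. Contigs with J and C numbered 9 in dataset 1, 2 in dataset 2 and 33 without uveitis, and TRAJ27 was named in 3, 1 and 10 of them, more than any other J gene in dataset 1 and without uveitis. TRAJ27 lies at chr14:54192303-54192361 in GRCm38. It made up 30.3% (15.6 to 48.7) of these contigs without uveitis against 3.39% (2.05 to 5.24) of productive TRA contigs, and 33.3% (7.49 to 70.1) against 0.488% (0.0123 to 2.69) in dataset 1. TRAJ49, with 6 contigs without uveitis, made up 18.2% (6.98 to 35.5) against 2.14% (1.11 to 3.71), and TRAJ37, with 4, made up 12.1% (3.40 to 28.2) against 5.88% (4.08 to 8.16), whose intervals overlap. The median was 2 UMIs for TRA contigs with J and no V in dataset 1 and without uveitis.

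A separate set in dataset 1 had a TRAJ gene and neither V nor C. It held 8 contigs of 731 to 984 bases with 1 or 2 UMIs each, of which 3 carried TRAJ6. The other libraries held 0 of 389 and 0 of 694 TRA contigs of this kind. Conversely, TRAV3-3 was found without J or C in 6 contigs without uveitis, of 350 to 399 bases and 4 to 10 UMIs, and in 1 contig of dataset 2 of 393 bases and 3 UMIs. In TRAV3-3 contigs without uveitis this was the whole of its non-productive use, against 4 productive contigs.

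Most non-productive TRA contigs with a V gene were complete V-to-J joins with no CDR3 found. These numbered 37 of 71 in dataset 1, 20 of 32 in dataset 2 and 64 of 133 without uveitis, and joins with a CDR3 numbered 16, 8 and 20. Their V genes were spread widely, over 30, 19 and 48 genes. TRAV12-2 was named in 5, TRAV12-3 in 4 and TRAV6-7-DV9 in 4 of 53 TRA members with V in dataset 1. TRAV6-3 and TRAV7N-6 were named in 4 each and TRAV6-7-DV9 and TRAV9-4 in 3 each of 30 in dataset 2, where TRAV6-3 was in 0 and TRAV7N-6 in 1 of 357 productive contigs. Contigs are not all independent joins, as those of TRAV7N-6, TRAV6-7-DV9 and TRAV9-4 there carried 1 J gene per V gene. The 3 of TRAV9-4 were the same junction, printed above. Without uveitis TRAV13-1, TRAV3-3 and TRAV6-7-DV9 were named in 6 each of 95. TRAV genes have near-identical D and N copies, which were named in 18 of 53, 8 of 30 and 38 of 95 of these contigs and whose calls are uncertain.

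At TRB the non-productive joins with V and J numbered 20, 10 and 45. TRBV1 was named in 5, TRBV3 in 4 and TRBV4 in 3 in dataset 1, and TRBV16 and TRBV4 in 2 each in dataset 2, with TRBV14 and other V genes in 1 contig each. Without uveitis TRBV4 was named in 7 and TRBV16, TRBV23, TRBV3 and TRBV31 in 5 each. TRBV4 made up 7 of 45 non-productive joins there and 14 of 516 productive contigs. Of these 7 joins, 3 were TRBV4 to TRBJ2-7 in cells of a single clonotype. TRBV23 made up 5 of 45 and 9 of 516. In all libraries, the TRBV23 members with a CDR3 shared runs of 9 bases with that V gene and began CASSL. The productive TRBV23 chains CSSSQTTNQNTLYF, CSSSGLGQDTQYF and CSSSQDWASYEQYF began CSSS. The V name of these members is therefore uncertain. No V gene named in a member was a pseudogene in the GENCODE annotation. Whether the reference of the authors held V pseudogenes is not given in the sources used here. The names therefore do not show that pseudogene joins were absent.

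D genes were named in most of these joins. In dataset 1 TRBD1 was named in 12 and TRBD2 in 6 of 20, in dataset 2 in 5 and 1 of 10, and without uveitis in 16 and 22 of 45. In productive TRB contigs TRBD1 was named in 69 and TRBD2 in 82 of 212, 91 and 185 of 391, and 200 and 180 of 516. TRBD1 made up 60% (36.1 to 80.9) of the joins of dataset 1 against 32.5% (26.3 to 39.3) of productive contigs, with overlapping intervals. TRBD2 lies after the TRBJ1 cluster on the chromosome, and of non-productive joins with TRBD2, 6 of 6, 0 of 1 and 22 of 22 carried a TRBJ2 gene. Of productive contigs with TRBD2, 1 of 82, 31 of 185 and 13 of 180 were given a TRBJ1 gene. The D segments are short, with 12 and 14 bases, and the names rest on the part of them left in the junction.

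Some non-productive TRB joins without a CDR3 were long, and 13 of these 16 carried TRBJ2-7. Above 900 bases, a limit set after the lengths were seen, there were 8 of 15 such contigs in dataset 1, 1 of 8 in dataset 2 and 7 of 29 without uveitis. TRBJ2-7 was the J gene in 5 of 8, 1 of 1 and 7 of 7 of them, and in 9 of the other 36. The other 3, all in dataset 1, carried TRBJ1-1, TRBJ1-3 and TRBJ2-2. The median UMIs of the long contigs were 39 against 5 in the shorter ones without uveitis, but 10 against 8 in dataset 1, and the 1 contig of dataset 2 had 13 UMIs. The longest were a TRBV2 to TRBJ2-7 contig of 1436 bases and 8 UMIs in dataset 1 and one of 1464 bases and 115 UMIs without uveitis. With the joins that had a CDR3 included, 55.0% (31.5 to 76.9) of dataset 1 and 22.2% (11.2 to 37.1) without uveitis were above 900 bases, against 10.4% (6.62 to 15.3) and 10.5% (7.96 to 13.4) of productive TRB contigs.

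The reading frame could be examined in the 67 contigs with a CDR3, by placing the ends of the CDR3 on the germline V and J segments. In 41 the V frame, the J frame or both differed from that of the listed CDR3, and these were called out of frame. They include the TRBV1 to TRBJ1-2 join without uveitis, where V and J were both shifted by 1 base and so matched each other. V and J both matched the CDR3 with a stop codon between them in 3 and without a stop in 13. Another 10 could not be placed. In 2242 productive contigs the same method placed 2156 in frame without a stop and 9 out of frame, and left 77 unplaced. The J end points, and V end points where the V motif was not found, were set from these same contigs, so agreement was partly built in. Being productive, these contigs cannot show how often a real frame shift is missed. Cell Ranger lists every CDR3 as a multiple of 3 bases, so a frame shift is seen in the segment that is read in another frame. This was V in some joins, J in others, and in a few both. The 3 joins that matched in frame with a stop were all TRB, and their stop codon is in capitals here. The V name TRBV23 is uncertain, as given above.
TRBV4 to TRBJ2-4, dataset 1, 2 UMIs: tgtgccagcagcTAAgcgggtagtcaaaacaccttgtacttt
TRBV23 to TRBJ2-1, dataset 2, 2 UMIs: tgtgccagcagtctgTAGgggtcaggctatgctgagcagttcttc
TRBV1 to TRBJ2-1, no uveitis, 8 UMIs: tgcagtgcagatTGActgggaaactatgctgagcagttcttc

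Out-of-frame joins sat beside a productive chain about as often as all barcodes held one, and in-frame joins mostly did not. A productive contig of the same chain was in the barcode of 39 of 41 out-of-frame joins, with 11 of 11 in dataset 1, 3 of 4 in dataset 2 and 25 of 26 without uveitis. The 25 include the TRBV1 to TRBJ1-2 join above, whose V and J frames agree. Of all barcodes in dataset 1, dataset 2 and without uveitis, 87.7%, 90.4% and 94.3% held a productive TRA contig. For TRB these shares were 94.8%, 98.4% and 97.1%. Of the 13 joins in frame without a stop, 11 had no productive contig of their chain in the barcode, 2 of 2 in dataset 1, 5 of 5 in dataset 2 and 4 of 6 without uveitis. They were 347 to 930 bases long, with 1 to 8 UMIs, and 11 were TRA. The other 2 were both named TRBV23, a V name that is uncertain here.

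In dataset 2, 4 of the 5 in-frame joins had the CDR3 of a productive chain of the same library. The TRAV9-4 to TRAJ31 junction printed above was non-productive in 3 barcodes, with 3, 4 and 1 UMIs, and productive in 37 others of the same library. The productive TRB contig was the same, TRBV31 to TRBJ1-3, in the 37 and in the 3. In another barcode, a TRAV12-2 to TRAJ31 junction with 2 UMIs was the same as that of 7 barcodes where it was productive. In dataset 1 and without uveitis 0 of 2 and 0 of 6 junctions called in frame without a stop matched a productive one. The TRBV1 to TRBJ1-2 join without uveitis, called out of frame, held the CDR3 of the productive TRB contig of its own barcode.

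Of the other rearrangements found in more than 1 barcode, 3 had all their barcodes in 1 clonotype each. TRAV6-7-DV9 to TRAJ58, with 2 and 3 UMIs, was found in 2 of 8 cells of the clonotype TRAV12-2 to TRAJ47 with TRBV23 to TRBJ2-4 in dataset 1, out of frame. The same CDR3 nucleotides, with the V gene called TRAV6N-6, stood in 1 more barcode, which had the same TRB CDR3 and V and J genes but another productive TRA, TRAV12-2 to TRAJ23. TRAV13D-2 to TRAJ12, with 2 UMIs in both, was found in 2 of 12 cells of the largest clonotype of that dataset, and 2 more of these cells held TRAV13-1 to TRAJ12 without a CDR3. TRBV1 to TRBJ2-3, with 5 and 7 UMIs, was out of frame in 2 of 3 cells of TRAV9-4 to TRAJ31 with TRBV4 to TRBJ2-1 without uveitis. TRAV12-3 to TRAJ38 was found in 2 barcodes without a paired clonotype, as neither held a productive TRA contig. Both held the same productive TRB, with the V and J genes and CDR3 amino acids of the TRAV16N to TRAJ15 clonotype above. TRBV16 to TRBJ1-2 was found in 1 cell of the TRAV9-2 to TRAJ44 clonotype above and in 1 barcode without a paired clonotype. These 2 barcodes also held the same productive TRB by V gene, J gene and CDR3 amino acids. No non-productive CDR3 was shared between libraries, with 0 for each pair.

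With V and J alone, more joins were shared within clonotypes. Cells of a clonotype that both held a non-productive TRA join had the same V and J in 5 of 9 pairs in dataset 1, 3 of 3 in dataset 2 and 1 of 1 without uveitis. Between clonotypes this was so in 3 of 586, 3 of 168 and 0 of 2345 pairs. For TRB, 4 of 4 pairs within and 14 of 557 between clonotypes matched without uveitis, and the uveitis datasets had 0 pairs within a clonotype. In dataset 2, TRAV7N-6 to TRAJ22 was found in 2 of the 37 cells of the largest clonotype, with 2 UMIs each. Without uveitis, TRBV4 to TRBJ2-7 was found in 3 of 7 cells of TRAV9-2 to TRAJ31 with TRBV20 to TRBJ2-2, with 2 or 3 UMIs each.

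A non-productive V-J TRA contig was found in 51, 27 and 83 barcodes, or 24.1% (18.5 to 30.4), 7.40% (4.93 to 10.6) and 16.2% (13.1 to 19.7). A productive TRA contig was also present in 39, 19 and 71 of them. Barcodes with more than 2 distinct TRA joins, which is more than a pair of alleles can give, numbered 0, 1 and 0. For TRB joins they numbered 0, 0 and 1. The non-productive TRA contig had fewer UMIs than the productive one in 33 of 40 pairs in dataset 1 (82.5%, 67.2 to 92.7), 10 of 19 in dataset 2 (52.6%, 28.9 to 75.6) and 63 of 71 without uveitis (88.7%, 79.0 to 95). The median ratio was 0.437, 0.750 and 0.400.

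The J genes of the non-productive and the productive TRA join of a barcode lay near each other. The median distance between them was 5.50 kb in dataset 1 (40 pairs), 8.19 kb in dataset 2 (19 pairs) and 9.59 kb without uveitis (71 pairs). Between a non-productive join of a barcode and the productive joins of other barcodes in this set, it was 12.7, 10.6 and 12.3 kb. The distances of both J genes from TRAC, the constant gene, had a Pearson r of 0.58, 0.38 and 0.47 and a Spearman rho of 0.53, 0.56 and 0.46 over these pairs of joins, which share the barcode, the library and in part the clonotype. With 1 barcode a clonotype, r was 0.46 over 33, 0.35 over 16 and 0.48 over 70 pairs. The non-productive J gene lay farther from TRAC than the productive one in 20 of 40, 8 of 19 and 33 of 71 pairs and nearer in 17, 11 and 34, so that neither position was the rule.

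**Figure D5:**
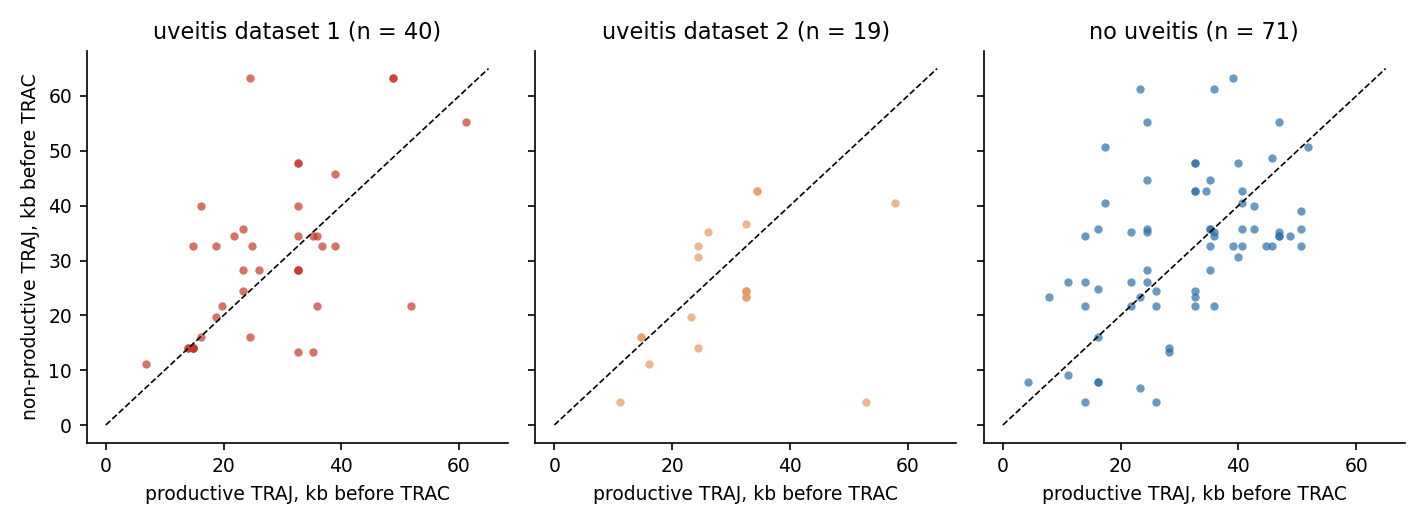
Distance of the J gene from TRAC (kb) in the non-productive TRA join (vertical) against the productive TRA join with the most UMIs of the same barcode (horizontal), in each library. Each point is 1 non-productive contig, and the dashed line marks the same J gene. Points lie on both sides of the line, at median distances of 5.50, 8.19 and 9.59 kb.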

How the data were processed

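The authors sequenced V(D)J libraries made with the 10x Genomics 5′ kit and assembled them with Cell Ranger (version 3) against a mouse GRCm38 V(D)J reference. The deposited values are counts of reads and UMIs per contig, with its length in bases, genes and CDR3. All contigs were in called cells and of high confidence. They were analysed as deposited, with no minimum, over 5302, 7439 and 21408 UMIs. The members and lists were chosen with earlier results of these data known. Named were the 3 V genes in most members of each chain and library (with ties), the 3 commonest J genes without V, all C and D genes, and rearrangements in more than 1 barcode. Other genes were named after their values were seen. Shares carry exact 95% Clopper-Pearson intervals, and no test was made between 2 libraries with uveitis and 1 without. Junctions were placed by runs of at least 7 bases shared with GENCODE M21 segments, which held all 135 genes named. Positions come from that annotation, which may differ from the reference of the authors. The steps were tested on simulated data. Thinning used 1000 draws. Droplets with more than 1 cell were not removed. The mRNA libraries were not used here. Scripts ran in Python 3.11.15. Tables were read with pandas 2.3.3 and numpy 2.4.6. Intervals came from scipy 1.17.1, and plots from matplotlib 3.10.9.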

Additional observations from a re-analysis of the deposited data

Results flagged for a closer look

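Contigs outside the TRA and TRB chains were set beside the limit that a count of 0 allows. Non-productive contigs that Cell Ranger labelled Multi, since their genes came from more than 1 chain, numbered 49 of 676 contigs in dataset 1 (7.25%), 4 of 800 in dataset 2 (0.50%) and 102 of 1648 without uveitis (6.19%), above limits of 0.444%, 0.375% and 0.182%. Dataset 2 again held the fewest. Of the Multi contigs, 20 of 49, 0 of 4 and 86 of 102 joined TRAJ50 to TRBC1 without a V gene, a pair chosen after its counts were seen. Immunoglobulin contigs, from genes of B cells, numbered 11 in dataset 1, with 1 UMI each, and 0 of 800 and 0 of 1648 in the other libraries. Their part in the TRA and TRB counts was not tested.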

How the results depend on the processing

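No paired analysis was possible because the single library without uveitis has no partner number to pair with. The 3 libraries kept their order for the share of TRB barcodes under every alternative that was run for it. With contigs of at least 2 UMIs, the share of TRA members without V in dataset 1 was 15.5% and the share with a productive TRA in the barcode was 77.6%, or 71.6% for the uveitis datasets combined. With barcodes that had a productive TRA and TRB, TRA members made up 18.1%, 5.39% and 16% of TRA contigs in dataset 1, dataset 2 and without uveitis, were in 23.3% of barcodes of dataset 1, and had no V in 0% of dataset 2, and TRB members had no V in 90.6% of dataset 1. Weighted by UMIs, the members made up 14.8%, 4.83% and 9.63% of TRA and 26.9%, 1.43% and 29.2% of TRB, and weighted by reads 17.9%, 4.60% and 11.8% of TRA and, in dataset 2, 2.13% of TRB. Counting only the value False gave 7.24%, 2.19% and 3.44% of TRA and 2.30%, 0.509% and 3.01% of TRB, and only contigs with V and J gave 20.5% and 13.0% of TRA and 8.62% and 8.02% of TRB in dataset 1 and without uveitis. These are lower because fewer members are counted. Thinned UMIs gave 21.7% of barcodes with a TRA member without uveitis. The median of all members was 4, 3 and 6 UMIs, and with V and J only it was 3, 3 and 4, and 3 in place of 4 for the uveitis datasets combined. Rearrangements in more than 1 barcode, 3 and 1 in the uveitis datasets, were 5 and 3 by V and J within a clonotype. Leaving out either uveitis dataset moved the combined values over the range of the other: TRA members 8.23% to 25.7% and TRB members 3.93% to 35.2% of contigs, 8.49% to 32.1% and 4.38% to 52.8% of barcodes, TRA without V 6.25% to 25.4%, TRB without V 37.5% to 82.6%, with a productive chain 62.5% to 66.2% (TRA) and 62.5% to 90.4% (TRB), and median UMIs 3 to 4. J-C contigs with at least 5 UMIs, an alternative chosen after the data were seen, were in 31.6%, 0.548% and 44.9% of barcodes. Thinned to the UMIs per barcode of dataset 2, J-C contigs were in 44.2% and 53.9% of barcodes of dataset 1 and without uveitis, against 1.64% in dataset 2, whose 6 contigs are too few to compare J genes.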
